A study of Mus musculus with 10 samples.

Results

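The mouse major histocompatibility complex (MHC, called H2 in the mouse) was examined as a set of regions in a CUT&RUN profile of IKZF2. Its members were all regions of the deposited set that overlapped positions 33.8 to 37.3 Mb of chromosome 17 (mm10) by at least 1 base. The rule gave 367 of 151133 regions. By the midpoint of the region and by gene positions, 239 lay in class I, 55 in class II and 73 in class III. The class I regions split into 32 on the K side, below H2-Oa, and 207 on the D to M side, from H2-D1 upwards. These parts are stretches of the chromosome and hold many other genes. Of the 21 protein-coding genes on the K side, only H2-K1 is a class I gene. The D to M side also holds genes such as Ier3, Tubb5 and Trim26. Class II ran from H2-Oa to Notch4, and class III from Notch4 to H2-D1. The rest of chromosome 17 held 5872 regions and is the set against which the MHC is compared.

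The cells were RN2 cells, a mouse leukaemia line of strain C57BL/6 driven by MLL-AF9 with NRASG12D. All of them carried murine IKZF2 and RFP from a retrovirus, had been sorted, and had been cultured for 2 weeks, so the profile is one of overexpressed IKZF2. An anti-IKZF2 antibody gave 3 libraries, each sequenced as technical replicates 1 and 2, and the 4 samples with a control antibody were not analysed here. With no control antibody values, the signal at a region cannot be told apart from cleavage that any antibody would give there.

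CUT&RUN uses an antibody to bring a nuclease to a chromatin protein and then sequences the released fragments. IKZF2, or Helios, is a zinc finger factor of the Ikaros family, whose members bind DNA with a GGGAA core and act in blood cell development. The MHC is the gene-dense cluster that encodes class I and class II molecules, which present peptides to CD8+ and CD4+ T cells. Between these classes lies class III, with complement genes, the Tnf cluster, heat shock genes and many genes with no role in immunity. Class I, class II and antigen processing genes respond to interferon, and class II genes depend on the transactivator encoded by Ciita, which acts through X and Y boxes in their promoters.

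A region's signal is its CPM (its read count scaled to the total reads in regions, as counts per 1000000) per kb of region width, with technical replicates of a library summed. Means and SDs are over the 3 libraries. Whether separate cultures gave the libraries is not in the labels, so these SDs may be technical. Reads in regions came to 1675237, 1570251 and 2081455 in libraries 1, 2 and 3, of which 4931, 4997 and 6014 lay in the MHC. Technical replicate 2 held 4066 to 5078 of these reads per library and technical replicate 1 held 744 to 936. The median count per MHC region was 9 to 12 in technical replicate 2 and 2 in technical replicate 1. A single read in a region of median width was worth 4.21 to 5.59 CPM per kb, so a region with few reads has a coarse value, and division by width favours narrow regions.

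Of the 202 RefSeq promoter windows (GRCm38.p6, 300 bases each, 250 of them before the start site) of 156 MHC genes, 64 (31.7%) overlapped a region. Among all 21263 windows the share was 24.3%. Windows for 9 genes are printed from 5′ to 3′ on the strand of the gene, with the bases under the deposited region in capitals. Capitals take deposited region starts as counted from 0, which the files do not state. The windows of Ier3, Msh5, H2-T-ps, Zbtb22, Csnk2b and Atf6b are shown because they lay under strong regions of the complex, those of H2-D1 and H2-Q4 as class I promoters, and that of H2-DMb1 as a class II promoter.
Ier3, chr17:35821463-35821762 (plus strand): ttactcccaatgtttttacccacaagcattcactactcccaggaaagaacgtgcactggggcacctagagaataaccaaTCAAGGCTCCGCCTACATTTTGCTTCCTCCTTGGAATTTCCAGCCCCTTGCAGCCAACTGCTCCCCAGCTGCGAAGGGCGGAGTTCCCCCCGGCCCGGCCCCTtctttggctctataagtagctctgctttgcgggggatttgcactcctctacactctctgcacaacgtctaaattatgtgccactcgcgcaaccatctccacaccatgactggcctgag
Msh5, chr17:35046573-35046872 (minus strand): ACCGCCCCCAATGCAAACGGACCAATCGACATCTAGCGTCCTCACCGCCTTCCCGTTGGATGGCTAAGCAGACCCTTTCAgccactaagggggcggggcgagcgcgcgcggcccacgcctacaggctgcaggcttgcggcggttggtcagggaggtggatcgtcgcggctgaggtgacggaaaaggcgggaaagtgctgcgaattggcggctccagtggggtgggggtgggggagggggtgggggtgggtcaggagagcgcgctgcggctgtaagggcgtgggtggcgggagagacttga
H2-T-ps, chr17:36111627-36111926 (minus strand): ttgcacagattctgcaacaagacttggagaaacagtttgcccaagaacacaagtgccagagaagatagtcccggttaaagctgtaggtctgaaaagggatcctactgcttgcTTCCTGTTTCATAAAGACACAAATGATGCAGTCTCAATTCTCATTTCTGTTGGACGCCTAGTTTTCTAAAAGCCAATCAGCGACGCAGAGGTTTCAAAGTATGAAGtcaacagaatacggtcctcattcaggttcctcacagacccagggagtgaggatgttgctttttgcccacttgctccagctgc
Zbtb22, chr17:33915926-33916225 (plus strand): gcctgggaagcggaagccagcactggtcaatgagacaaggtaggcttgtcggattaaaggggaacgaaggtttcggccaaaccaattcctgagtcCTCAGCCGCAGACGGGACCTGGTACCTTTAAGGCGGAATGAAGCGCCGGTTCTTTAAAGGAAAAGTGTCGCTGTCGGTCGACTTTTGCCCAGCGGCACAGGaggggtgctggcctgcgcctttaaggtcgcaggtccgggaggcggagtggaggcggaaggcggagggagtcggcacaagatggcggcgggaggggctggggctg
Csnk2b, chr17:35121243-35121542 (minus strand): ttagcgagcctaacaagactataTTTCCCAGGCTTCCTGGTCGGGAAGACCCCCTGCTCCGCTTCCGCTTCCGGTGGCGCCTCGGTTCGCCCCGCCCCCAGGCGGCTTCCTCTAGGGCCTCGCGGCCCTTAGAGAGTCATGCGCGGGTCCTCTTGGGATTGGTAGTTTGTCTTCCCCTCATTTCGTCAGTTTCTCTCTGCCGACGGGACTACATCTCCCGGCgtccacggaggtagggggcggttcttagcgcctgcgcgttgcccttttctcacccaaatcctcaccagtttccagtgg
Atf6b, chr17:34646896-34647195 (plus strand): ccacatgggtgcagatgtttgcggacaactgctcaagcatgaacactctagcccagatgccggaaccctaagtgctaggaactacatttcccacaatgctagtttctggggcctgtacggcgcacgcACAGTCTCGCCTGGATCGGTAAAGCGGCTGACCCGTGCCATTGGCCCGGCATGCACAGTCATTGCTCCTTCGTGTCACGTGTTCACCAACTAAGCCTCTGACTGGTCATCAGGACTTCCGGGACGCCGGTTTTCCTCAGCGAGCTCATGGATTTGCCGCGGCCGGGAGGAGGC
H2-D1, chr17:35262844-35263143 (plus strand): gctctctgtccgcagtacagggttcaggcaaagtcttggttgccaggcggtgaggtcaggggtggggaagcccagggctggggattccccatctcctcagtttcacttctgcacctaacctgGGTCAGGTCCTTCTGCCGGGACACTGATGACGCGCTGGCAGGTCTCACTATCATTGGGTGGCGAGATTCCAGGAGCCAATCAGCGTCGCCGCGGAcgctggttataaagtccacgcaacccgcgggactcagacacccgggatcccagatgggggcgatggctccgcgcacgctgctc
H2-Q4, chr17:35379367-35379666 (plus strand): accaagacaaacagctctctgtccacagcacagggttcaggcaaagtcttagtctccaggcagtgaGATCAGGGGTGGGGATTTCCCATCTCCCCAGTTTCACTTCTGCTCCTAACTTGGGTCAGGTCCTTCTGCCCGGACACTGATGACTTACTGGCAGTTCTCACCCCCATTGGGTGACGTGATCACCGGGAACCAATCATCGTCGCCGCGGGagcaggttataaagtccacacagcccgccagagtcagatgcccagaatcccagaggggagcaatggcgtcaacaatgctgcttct
H2-DMb1, chr17:34152941-34153240 (plus strand): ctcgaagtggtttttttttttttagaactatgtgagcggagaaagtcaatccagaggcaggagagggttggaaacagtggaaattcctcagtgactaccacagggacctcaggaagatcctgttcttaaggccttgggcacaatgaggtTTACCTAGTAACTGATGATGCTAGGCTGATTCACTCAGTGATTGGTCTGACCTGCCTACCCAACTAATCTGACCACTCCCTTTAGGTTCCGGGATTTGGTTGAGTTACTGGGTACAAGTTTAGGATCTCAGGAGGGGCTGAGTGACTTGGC

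Each window was searched on both strands for 6 motifs. GGGAA, the Ikaros core, was found in 71.8% of MHC windows and in 63.0% of all windows. TGGGAA, which contains GGGAA, was found in 31.2% of MHC windows and 24.5% of all windows. CCAAT, the Y box core of class II promoters, was found in 45.5% and 38.2%, and TGACG, the core of the X2 box, in 32.7% and 23.6%. A kappa B form, GGG and CC with any 5 bases between them, stood in 56.9% of MHC windows and 57.0% of all windows, and an interferon response form, GAAA and GAAA with any 2 bases between them, in 4.46% and 3.35%. Among the 64 MHC windows under a region, which belong to 53 genes, GGGAA was found in 71.9%, against 71.7% of the 138 MHC windows with no region. Over all genes the shares were 66.4% and 61.9%. CCAAT was found in 57.8% of the windows under a region, against 39.9% of those with none, and TGACG in 56.3%, against 21.7%. Over all genes these shares were 44.3% and 36.2% for CCAAT and 36.0% and 19.6% for TGACG, so both motifs were more frequent under regions there too. TGGGAA was found in 32.8% of MHC windows under a region and 30.4% of those with none (23.3% and 24.9% over all genes). The kappa B form stood in 60.9% and 55.1% (69.7% and 53.0% over all genes). The interferon response form stood in 7.81% and 2.90% (2.74% and 3.55% over all genes). These shares are descriptions of letters, with no test.

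In the printed windows, CCAAT lay at least partly under the region in 8 of 9, and GGGAA in 4 of 9. The Csnk2b window held GGGAA under its region at bases 25 to 29, 43 to 47 and 172 to 176, counted from the 5′ end of the window. The H2-Q4 window held GGGAA under its region at bases 83 to 87 and 191 to 195, and TGACG at bases 178 to 182. In the H2-D1 window the 2 GGGAA matches lay upstream of the region, at bases 65 to 69 and 85 to 89, while TGACG at bases 150 to 154 lay within it. The Zbtb22 window held no match to any of the 6 motifs under its region.

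MHC regions were packed more densely than those of the rest of the chromosome. There were 104.9 regions per Mb in the MHC and 66.5 per Mb in the rest of chromosome 17, which covered 15.0 and 8.67 kb of sequence per Mb. Protein-coding genes were denser too, with 50.9 per Mb in the MHC and 9.97 per Mb in the rest. Median region width was 114 bp in the MHC and 109 bp in the rest, and 15.3% of MHC regions were 200 bp or wider, against 9.76%. Region density was 103 per Mb in class I, 117 in class II and 104 in class III, while gene density was 43.8, 40.3 and 81.6 per Mb. In steps of 100 kb, the number of regions ran between 3, in the stretch from Cyp21a1 to Zbtb12 with 8 genes, and 24, in the stretch with H2-Q6, H2-Q7 and H2-Q10.

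Reads in regions per Mb were higher in the MHC. Reads in regions summed to 841, 909 and 826 CPM per Mb in the MHC in libraries 1, 2 and 3, against 442, 455 and 457 in the rest of chromosome 17. The MHC was higher in each library, and the groups of values did not overlap. The mean was 859 ± 44.5 CPM per Mb in the MHC and 451 ± 7.84 in the rest (SD, n = 3 each), a log2 ratio of 0.93 ± 0.07. Class I reached 810 ± 50.3, class II 980 ± 45.7 and class III 940 ± 70.5 CPM per Mb (SD, n = 3 each), with log2 ratios to the rest of 0.84, 1.12 and 1.06. Class II was above class I by 0.28 ± 0.11 and class III above class I by 0.21 ± 0.07 on the log2 scale, each higher in 3 of 3 libraries. With only regions over 1 kb from a gene end, class III turned to -0.67 ± 0.04 against class I and to -0.09 ± 0.08 against the rest. Reads were still divided by the whole length of each part there. Within 1 kb of a gene end lay 47.9% of class III regions, 22.2% of class I and 8.41% of the rest. These turned values thus also depend on the share of regions left out, and do not show lower signal away from genes. Class III against class II differed by -0.06 ± 0.16, higher in 2 of 3 libraries, and the sign turned without library 3 (0.03). The exact two-sided sign-flip permutation test over 3 libraries gave p = 0.25 for 6 of these 7 comparisons, the smallest p it can give, and p = 1 for class III against class II. After Benjamini-Hochberg adjustment over the 14 comparisons of both measures these were 0.35 and 1, so no comparison of parts could reach 0.05 in this design.

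Mean signal per region differed far less. The MHC had 55.6, 59.4 and 54.9 CPM per kb in libraries 1, 2 and 3, against 51.5, 52.5 and 53.2 in the rest of chromosome 17. The values did not overlap, and the mean was 56.7 ± 2.43 in the MHC and 52.4 ± 0.851 in the rest (SD, n = 3 each). The log2 ratio was 0.11 ± 0.07 (exact permutation test, p = 0.25, adjusted p = 0.35), and in technical replicate 1 alone it was 0.01 ± 0.08. Class III averaged 58.6 ± 2.73 and was 0.16 ± 0.09 above the rest on the log2 scale. Class I averaged 56.7 ± 3.48 and was 0.11 ± 0.09 above it, each higher in 3 of 3 libraries (exact permutation test, adjusted p = 0.35). Class II averaged 53.9 ± 3.18 and lay 0.04 ± 0.06 above the rest, higher in 2 of 3 libraries (exact permutation test, p = 0.5, adjusted p = 0.538). Technical replicate 1 alone turned the sign for class I (-0.02) and class II (-0.09). Between classes, class II against class I was -0.07 ± 0.15, class III against class I 0.05 ± 0.05 and class III against class II 0.12 ± 0.15, all within or near their spread.

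**Figure D1:**
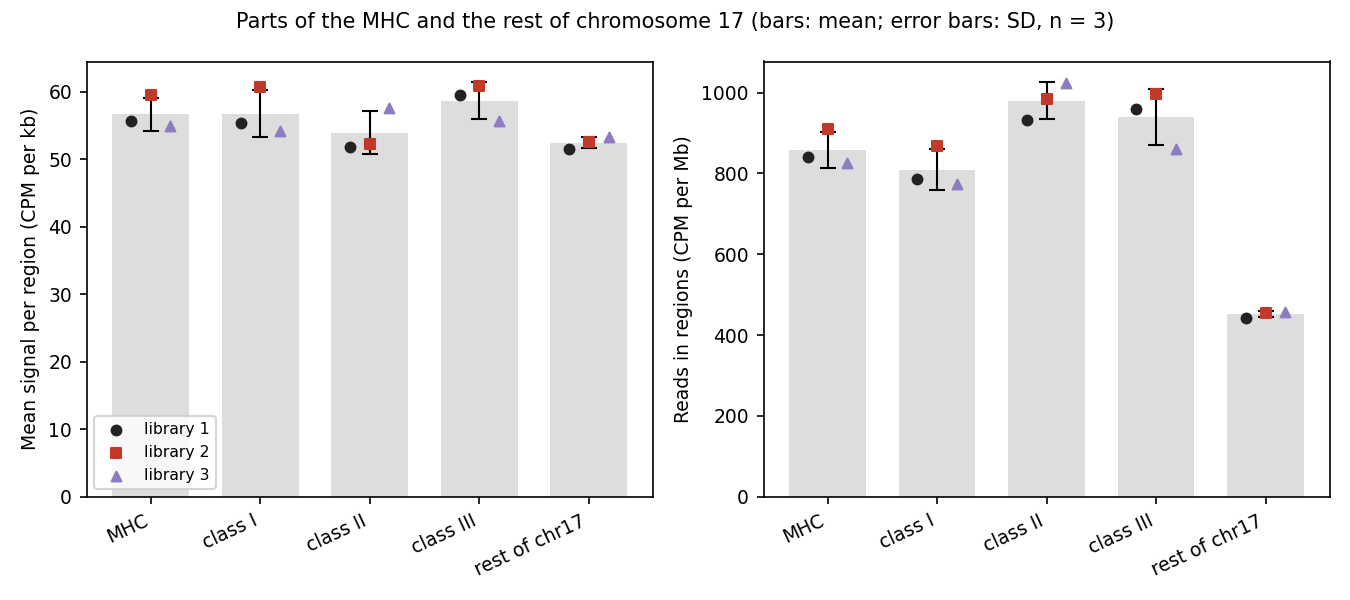
Mean signal per region (left, CPM per kb) and reads in regions per Mb (right, CPM per Mb) for the MHC, its 3 classes and the rest of chromosome 17; bars are means, error bars SD, and points the 3 libraries. Reads per Mb lay between 826 and 909 in the MHC and between 442 and 457 in the rest, while mean signal lay at 56.7 and 52.4.

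More MHC regions lay near start sites and gene ends. Within 1 kb of a start site stood 66 regions (18.0%) of the MHC and 359 (6.11%) of the rest of chromosome 17, and within 1 kb of either end of a gene 27.8% and 8.41%. The K side of class I had 40.6% of its regions near a start site, and class III had 47.9% near a gene end. Inside a gene lay 173 MHC regions (47.1%), against 49.9% in the rest and 47.3% of all regions, with 68.5% in class III, 62.5% on the K side, 50.9% in class II and 36.2% on the D to M side. Among regions near start sites, mean signal was 68.5 ± 6.96 in the MHC and 74.7 ± 7.72 in the rest (SD, n = 3 each), a log2 ratio of -0.12 (exact permutation test, p = 0.25). Among regions over 1 kb from start sites and gene ends it was 53.8 ± 1.12 in the MHC and 50.8 ± 1.07 in the rest. So the MHC lay above the rest over 1 kb from start sites and gene ends, and below it near start sites. The sign was the same in each library in both. The group over 1 kb away includes regions inside genes. Near start sites the 10 class II regions averaged 55.4 ± 14.7, against 70.6 ± 5.79 for 39 class I and 71.6 ± 10.9 for 17 class III regions. The class II value was 38.7 in library 1, 66.5 in library 2 and 60.9 in library 3.

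**Figure D2:**
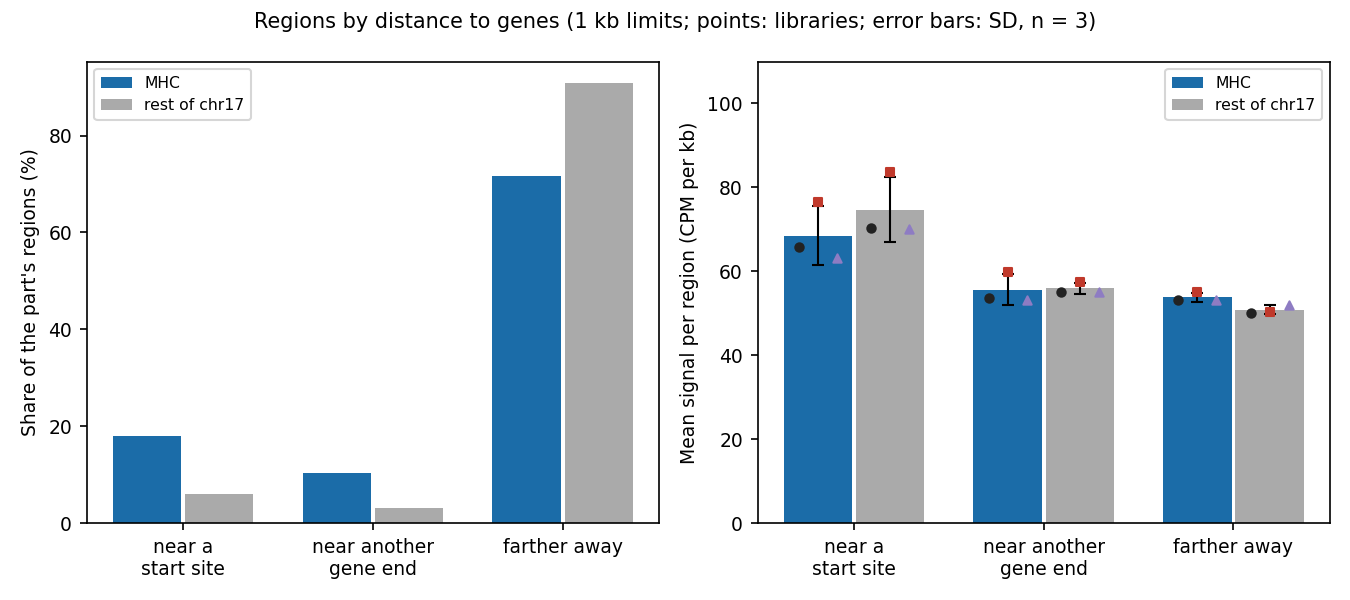
Share of regions by distance to genes (left, percent) and mean signal per region in each distance group (right, CPM per kb; bars are means, error bars SD, points the 3 libraries) for the MHC and the rest of chromosome 17. Near start sites stood 18.0% of MHC regions and 6.11% of the rest, with mean signals of 68.5 and 74.7.

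Strong regions were counted as those in the top 10% of all 151133 regions by mean signal, at 64.0 CPM per kb or more. There were 67 in the MHC (18.3%), beside a background of 10% and 651 (11.1%) in the rest of chromosome 17. The K side of class I had 12 (37.5%), its D to M side 35 (16.9%), class II 7 (12.7%) and class III 13 (17.8%). The difference from the rest depended on distance to genes. Near start sites the share was 43.9% in the MHC, 49.6% in the rest and 43.9% over all regions. Near other gene ends it was 10.5%, 18.9% and 19.8%. Over 1 kb from start sites and gene ends it was 12.9%, 8.22% and 7.87%. Ranked within each library, 10.6%, 15.8% and 12.5% of MHC regions were in the top 10%, against 9.50%, 10.6% and 11.2% in the rest. In technical replicate 1 alone the count of strong MHC regions was 42 of 367. The lowest members inside the limit had 65.4, 65.7 and 66.0 CPM per kb, and the highest outside it had 64.0, 63.7 and 63.3. With SDs of 5.98 to 59.7 at these 6 regions, the limit does not part regions beyond their spread.

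In all 3 libraries, 7 MHC regions (1.91%) were in the top 10%, against 58 (0.988%) in the rest of chromosome 17 and a background of 0.645%. Class III held 4, class I held 3 and class II held 0. Of the 7, 4 lay within 1 kb of a start site and 5 within 1 kb of a gene end. Near a start site also lay 40 of the 58 in the rest and 481 of the 975 over all regions. Among regions near a start site these were 4 of 66 in the MHC, 40 of 359 in the rest and 481 of 7355 over all. At that distance the MHC share was thus below that of the rest. The values ranked here are those that chose these regions, so their levels are a description.

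The highest of all lay outside genes, between Gnl1 and H2-T24, a class Ib gene, at chr17:35998230-35998339 and 5132 bp from the nearer end of H2-T24. Its signal was 252, 257 and 97.0 CPM per kb in libraries 1, 2 and 3 (mean 202 ± 91.0, SD, n = 3), so library 3 was clearly lower. In technical replicate 1 alone it was 104, from 4, 4 and 2 reads. At chr17:35997068-35997286, on the other side of a weaker region of 45.5 CPM per kb, lay a region of 73.9, 126 and 132 CPM per kb. There library 1 was the lowest. The strongest promoter region was that of Ier3, an immediate early response gene, at chr17:35821541-35821644 and 69 bp from the start site. It had 203, 179 and 74.6 CPM per kb (mean 152 ± 68.3, SD, n = 3) and was not in the top 10% in library 3.

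In class III, the region at the start of Msh5, a meiotic gene of the mismatch repair family, had 129, 214 and 108 CPM per kb (chr17:35046792-35047009, mean 151 ± 56.0, SD, n = 3). Library 2 was the highest, and technical replicate 1 alone gave 100.1. The region beside Rnf5, which encodes a ubiquitin ligase of the endoplasmic reticulum, was 369 bp wide and had 129, 129 and 97.6 CPM per kb (chr17:34603587-34603956). It rested on 230 reads, the most among these 7. The region over the start of Csnk2b, the regulatory subunit of casein kinase 2, overlapped Gpank1 as well and had 117, 150.4 and 86.9 CPM per kb (chr17:35121320-35121519). The region inside Tnf, at chr17:35200612-35200755 and 1252 bp from its start site, had 24, 26 and 22 reads in technical replicate 2 of the 3 libraries and 2, 2 and 6 in technical replicate 1. Its signal varied less between libraries than those of Msh5 and Csnk2b.

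The H2-T-ps and Zbtb22 promoters made up the rest of the 7. H2-T-ps, listed as protein-coding although its symbol is that of a pseudogene, had 135, 132 and 127 CPM per kb (chr17:36111708-36111814, mean 131 ± 4.18, SD, n = 3), with the least spread among them. The Zbtb22 region, 55 bp from the start of that zinc finger gene, had 118, 164 and 109 CPM per kb (chr17:33916020-33916121). Class II's highest region, inside H2-DMa at chr17:34135350-34135627, had 101, 115 and 81.5 CPM per kb (mean 99.3 ± 16.8, SD, n = 3) and reached the top 10% in 2 libraries.

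Other regions among the 5 highest of their parts also varied between libraries. Next to the Rnf5 region, inside Agpat1, a region had 74.6, 140.5 and 120.1 CPM per kb (chr17:34604194-34604330), lowest in library 1. On the K side, a region between Vps52 and H2-K1 and 11791 bp from the nearest gene end had 66.9, 112 and 111.5 CPM per kb (chr17:33978829-33978954). A region inside Kank3 had 51.9, 143 and 94.0 (chr17:33817640-33817778), and one inside Smim40 had 98.6, 122.7 and 26.4 (chr17:33899596-33899705). In class II, a region 6153 bp from H2-Eb2 had 97.7, 92.6 and 26.2 CPM per kb (chr17:34347563-34347673), with 42.3 in technical replicate 1 alone. The last 2 were lowest in library 3.

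**Figure D3:**
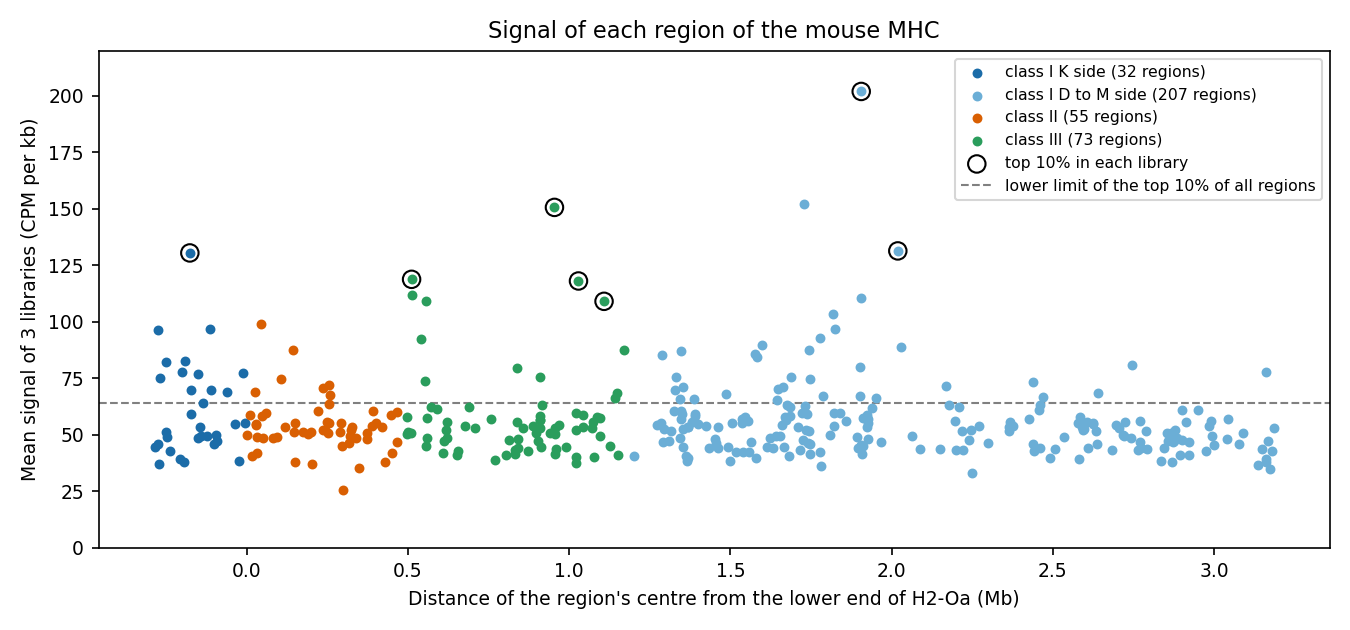
Mean signal of each of the 367 MHC regions (CPM per kb, mean of 3 libraries) against the distance of its centre from the lower end of H2-Oa (Mb), coloured by part; circles mark the 7 regions in the top 10% in each library and the dashed line the lower limit of the top 10% of all regions, 64.0. The highest region stands at 202, and the highest class II region at 99.3.

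Across regions, libraries were weakly correlated in the MHC. Pearson's r of log2(CPM + 0.5) between pairs of libraries was 0.21 to 0.27 over the 367 MHC regions and 0.02 to 0.06 over the rest of chromosome 17. For the 56 wide MHC regions r was 0.48 to 0.54, against 0.29 to 0.33 for the 573 wide regions of the rest, and for MHC regions under 200 bp it was -0.02 to 0.04. Regions are not independent replicates, wide regions hold more reads, and all regions of a library share its depth, so these values are descriptions.

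A gene's signal is that of the highest region within 5 kb of its span's ends. Neighbouring genes can take the same region and then have the same value. Of the 178 MHC genes, 148 (83.1%) had such a region, beside a background of 73.7% and 77.1% in the rest of chromosome 17. In the top 10% of genes with a region, at 102 CPM per kb or more, were 22 MHC genes, 14.9% of those with a region, beside a background of 10% and 12.8% in the rest. Only 9 regions stood behind these 22 genes. Class III had 14 of its 49 genes with a region there, through 5 regions, the D to M side 5 of 63, the K side 3 of 20 and class II 0 of 16.

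Of the classical class I genes, which present peptides on nearly all cells, H2-D1 had 69.1, 127 and 65.7 CPM per kb (mean 87.4 ± 34.6, SD, n = 3), from a region over its promoter. Library 2 was the highest there, with 3 and 16 reads in technical replicates 1 and 2. H2-K1 had 54.8, 64.3 and 30.9 CPM per kb, with an SD of 17.2, from a region 1490 bp from its nearer end. The H2-K1 promoter also lay under a region, a wider one with a mean of 47.1 CPM per kb. That mean was lower by less than this SD, so the choice between the H2-K1 regions is within their spread. Neither H2-D1 nor H2-K1 was in the top 10% of genes.

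Of the 22 class Ib genes, which encode non-classical class I molecules, 18 had a region and 1, H2-T-ps, was in the top 10%. Their median was 59.9 CPM per kb, against 58.8 for all genes with a region. Next came H2-Q7 with 87.2 ± 63.8 and H2-Q4 with 85.5 ± 40.5 CPM per kb (SD, n = 3 each). H2-Q7 was highest in library 3 and H2-Q4 in library 1, so their order does not hold between libraries. The lowest was H2-M10.5, with 6.2, 118 and 5.0 CPM per kb, where library 2 alone carried the value and the mean without it was 5.6. H2-Q, H2-T and H2-M genes are near copies of each other, and how reads that match several copies were placed is not given in the sources used here, so values at these genes are uncertain.

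All 9 class II genes had a region, none was in the top 10% and their median was 59.7 CPM per kb. H2-DMa, a subunit of the peptide exchange factor DM, led with 99.3 ± 16.8, from the region given above. H2-Ob, a subunit of the DM inhibitor DO, followed with 87.5 ± 29.8 and H2-Eb2 with 70.8 ± 19.3 CPM per kb (SD, n = 3 each). The genes for the classical class II chains were lower, with H2-Eb1 at 60.5 ± 42.1, H2-Aa at 51.4 ± 11.3 and H2-Ab1 at 51.2 ± 12.1 CPM per kb (SD, n = 3 each). Their regions stood 3102, 3904 and 1798 bp from the nearer end of H2-Eb1, H2-Aa and H2-Ab1. Those of H2-DMa, H2-Ob, H2-Eb2 and H2-Oa were also distant, at 3474, 3692, 3608 and 3865 bp from the nearer end. With the window cut to 1 kb, 6 of the 9 class II genes kept a region, and H2-Eb1, H2-Aa and H2-Ab1 had none. H2-DMb1 and H2-DMb2 shared a region at 59.7 ± 21.6 CPM per kb, and H2-Oa, the other DO subunit, had 55.4 ± 37.4. Given the SDs, neighbours in this order do not differ beyond their spread. The order also depended on depth and on the window. With technical replicate 1 alone, where the highest region was picked anew from few reads, H2-Ob had 184, H2-Ab1 133 and H2-Eb1 116 CPM per kb. Within 1 kb of a gene end H2-DMa had 68.8, H2-DMb1 59.7, H2-Eb2 55.6, H2-Ob 51.4, H2-Oa 49.9 and H2-DMb2 48.6 CPM per kb. H2-Eb1 had 104 in library 1 and 20.2 in library 2, and 38.7 without library 1.

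Of the antigen processing genes, Tapbp, which encodes the peptide loading factor tapasin, took 131 CPM per kb from the Zbtb22 region, 3357 bp away. Its own end held a region of 59.2. Tap1, a subunit of the peptide transporter, and Psmb8, an immunoproteasome subunit, shared a region between them with 30.4, 124 and 69.2 CPM per kb (mean 74.6 ± 47.1, SD, n = 3). Library 2 was the highest and library 1 the lowest there, and technical replicate 1 alone gave 37.3 for Tap1 and 29.3 for Psmb8. With regions of 200 bp or wider Tap1 had 49.2. Psmb9, another immunoproteasome subunit, had 36.0, 71.0 and 40.5 CPM per kb, and Tap2 had no region within 5 kb.

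In class III, the complement genes were low. C4b had 42.7 ± 28.5 CPM per kb (SD, n = 3), from a region 4113 bp from its nearer end, and 40.9 within 1 kb. C2 and Cfb shared a region with 38.8 ± 17.4 CPM per kb (SD, n = 3). Tnf, Lta and Ltb, cytokine genes of the TNF family, all took the region inside Tnf, which is 2410 bp from Lta and 4307 bp from Ltb, and so were all in the top 10%. Of the heat shock genes, Hspa1l had 53.9 ± 25.4 and Hspa1b 42.8 ± 39.3 CPM per kb (SD, n = 3 each), and Hspa1a had no region within 5 kb. The Hspa1l value came from a region over the start of Lsm2, 2560 bp from Hspa1l. That of Hspa1b came from a region 4058 bp away, and no heat shock gene had a region within 1 kb of its ends. Hspa1l had 23.9 in technical replicate 1 alone, and Hspa1b had 20.9 without library 2.

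**Figure D4:**
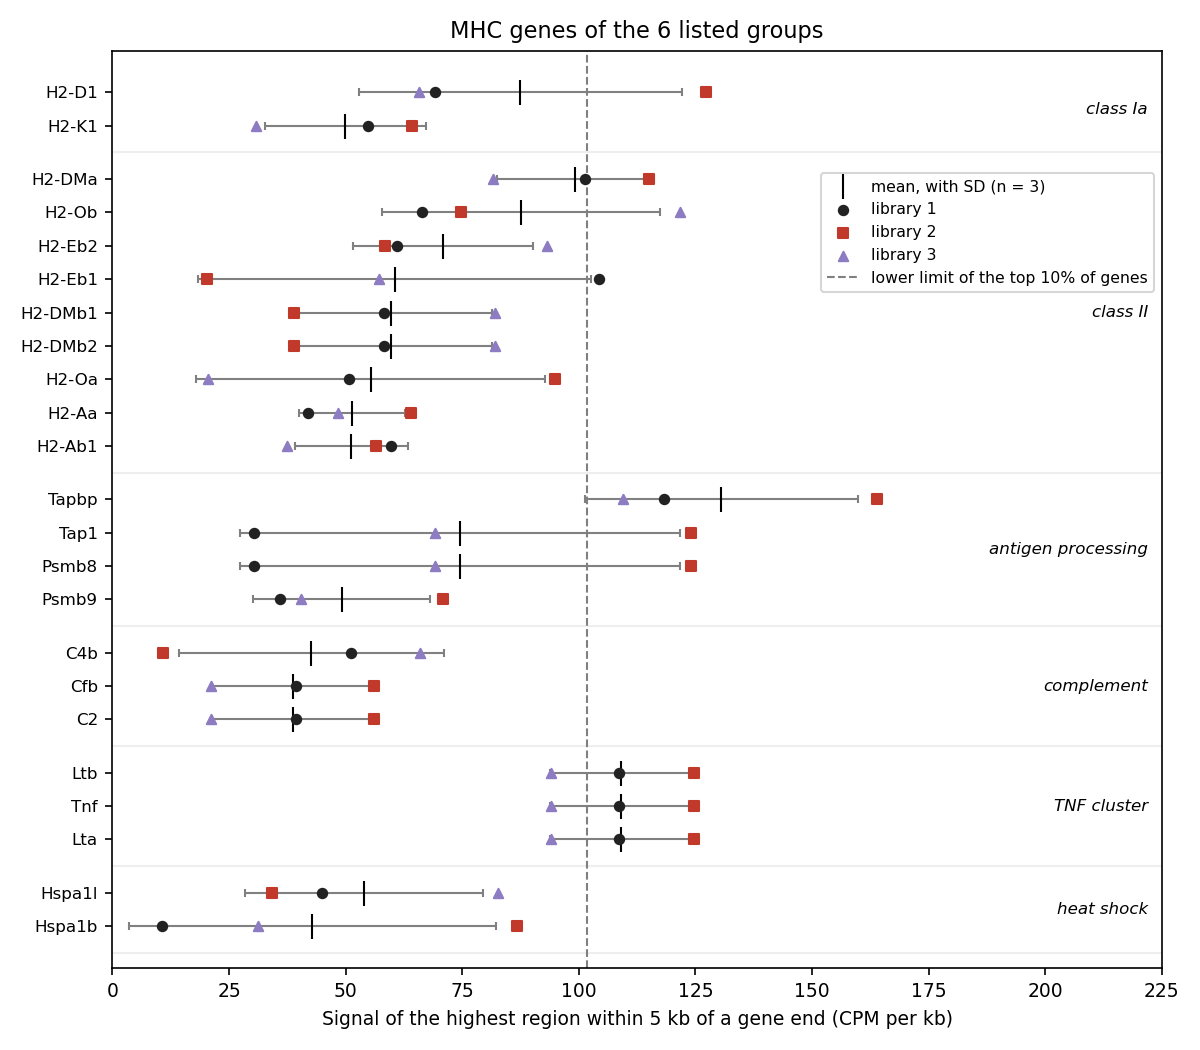
Signal of the highest region within 5 kb of a gene end (CPM per kb) for MHC genes of 6 lists; ticks are means, error bars SD, points the 3 libraries, and the dashed line the lower limit of the top 10% of genes, 102. Tapbp stands at 131 and the Tnf cluster at 109, and no class II gene passes the line.

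The highest genes of each part included several outside the immune lists. Ier3 and Flot1, which encodes a membrane raft protein, shared 152 CPM per kb, but Flot1 had 63.0 within 1 kb of its own ends, and both had 63.0 with regions of 200 bp or wider. Msh5 and Clic1, a chloride channel gene, shared 151, with 53.2 for Clic1 within 1 kb. Rnf5, Agpat1, an acyltransferase of lipid synthesis, and Ager, the receptor for advanced glycation end products, shared 119. That region was 2650 bp from Ager, which had no region within 1 kb. Atat1, a tubulin acetyltransferase, and Mrps18b, of the mitochondrial ribosome, shared 104 ± 60.6 CPM per kb (SD, n = 3), which was 68.7 without library 2. On the K side, Cd320, the transcobalamin receptor, and Ndufa7, of respiratory complex I, came next after the Zbtb22 region among regions within 5 kb of a gene end, with 82.3 ± 47.3, where library 3 had 27.7 and the others 109 and 110.2. This region lay over the start of Cd320 and 4709 bp from Ndufa7, which had 75.0 within 1 kb. Cd320 had 51.7 in technical replicate 1 alone.

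Of the 12 chromatin and transcription genes listed within the MHC, 10 had a region, with a median of 77.2 CPM per kb. In the top 10% were 3 (30% of those with a region), through the Zbtb22 and Atf6b regions alone. Over all genes 73.7% had a region, their median was 58.8 and the background of the top 10% was 10%. Daxx, a chaperone of histone H3.3, and Zbtb22 shared 131, from a region of 101 bp, and with regions of 200 bp or wider they had 59.2. Atf6b, a transcription factor of the unfolded protein response, had 109 ± 32.8 CPM per kb from a region at its start (SD, n = 3). The lowest was the region that Zbtb12 shared with the histone methyltransferase gene Ehmt2, at 41.1 ± 23.8. Of 19 regulators and partners of MHC molecules that lie elsewhere in the genome, all had a region, with a median of 79.0. In the top 10% were 3 (15.8%). These 3 were genes for proteins that fold or load class I molecules in the endoplasmic reticulum. Canx (calnexin) had 115 ± 32.4, Calr (calreticulin) 114 ± 33.9 and Pdia3 104 ± 52.2 CPM per kb (SD, n = 3 each), and Calr had 65.4 in technical replicate 1 alone. The lowest was Rfxap, a subunit of the factor that binds the X box, with 39.9 ± 10.9.

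Differences between samples were tested on counts with edgeR's quasi-likelihood test over the whole table, on the 27452 regions that passed the filter on low counts, of which 114 lay in the MHC. For technical replicate 2 against 1, with the library as a block, 0 MHC regions were called at an adjusted p under 0.05, beside a background of 0.259%. At an unadjusted p under 0.05 there were 9 of 114 (7.89%), against 6.86% of all tested, and DESeq2 called 0, with 7 of 114 (6.14%) at an unadjusted p under 0.05, against 5.06% of all tested. Over all regions the 71 calls split into 38 higher and 33 lower in technical replicate 2 with TMM, and 9 higher and 46 lower with total reads as library size. The median log2 fold change was 0.64 over the MHC regions tested and 0.41 over all regions tested with TMM, and 0.27 and 0.05 with total reads. The MHC region with the lowest adjusted p, 0.0838 with edgeR, was the one at chr17:35997068-35997286, with 27, 40 and 56 reads in technical replicate 2 of libraries 1, 2 and 3 and 0, 3 and 4 reads in technical replicate 1. Its signal was 126 CPM per kb in technical replicate 2 and 35.5 in technical replicate 1.

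Between the 3 libraries, where the spread came only from the 2 technical replicates of each CUT&RUN and not from separate samples, edgeR called 0 MHC regions, beside a background of 0.0146%. At an unadjusted p under 0.05 there were 4 of 114, against 4.35% of all regions tested.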

How the data were processed

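CUT&RUN of IKZF2 in RN2 cells gave 6 samples, with the group, library and technical replicate taken from the sample titles. For each sample the authors deposited raw read counts over a set of regions common to all samples, with no normalization. Per the submitters' processing notes, Bowtie2 2.3.3.1, MACS2 and mm10 were used. The role of each tool, the peak threshold and the samples used for peak calling were each not given in the sources used here. Of counts of 10 or more, the even ones made up 84.7 to 87.4% (technical replicate 1) or 58.0 to 61.2% (technical replicate 2), so both mates of a pair may have been counted.

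Counts of both technical replicates were summed per library, scaled to that library's sum over all regions and divided by region width. Coordinates are printed as deposited. Genes were 21887 protein-coding genes of RefSeq GRCm38.p6, and start sites and sequences came from RefSeq promoter windows of the same build, which matched 156 of 178 MHC genes. C4a had no entry among the genes used. Parts were compared by the log2 ratio of their values within each library, with an exact two-sided sign-flip permutation test over libraries. Counts were tested with edgeR 4.0.16 in R 4.3.3 (filterByExpr by library, TMM, glmQLFit, glmQLFTest), with DESeq2 1.42.0 as an alternative. Both technical replicates belong to the same CUT&RUN per the series' design text, so the library was a block. Python 3.11.15 was used with scipy 1.17.1, pandas 2.3.3, numpy 2.4.6 and matplotlib 3.10.9, and the tests were tested on simulated data.

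The members, the gene lists and the tests were chosen with earlier results of these data known. Genes named were all members of the class Ia, class II, antigen processing, complement, TNF cluster and heat shock lists. They also included the 3 highest and the lowest member of the class Ib, chromatin and transcription, and outside regulator lists, and the 5 highest genes and regions of each part. Regions in the top 10% in all 3 libraries and regions called by edgeR were named as well. Alternatives changed the technical replicates, libraries, low count filter, region width, distance to genes, boundaries, reference and scaling.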

Additional observations from a re-analysis of the deposited data

How the results depend on the processing

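Of 120 alternatives to the mean signal comparisons, 17 gave the main value, and of the 103 that moved it 16 turned the direction. Of 106 alternatives to reads per Mb, 17 gave the main value, and of the other 89, 8 turned the direction. The filter on low counts removed no region behind these comparisons and so tests nothing here. All values here are log2 ratios unless called counts. With technical replicate 1 alone, mean signal turned for class I (-0.0236) and class II (-0.0914) against the rest of chromosome 17, and reads per Mb for class III against class II (0.0810). With regions of 200 bp or wider, class II against the rest had a mean signal of -0.00398. With regions within 1 kb of a gene end, mean signal against the rest was -0.105 for the MHC, -0.0726 for class I, -0.350 for class II and -0.0713 for class III, and reads per Mb of class III against class II were 0.897. With regions over 1 kb from a gene end, mean signal of class III was -0.0482 against class I and -0.0353 against class II, and its reads per Mb were -0.0942 against the rest and -0.669 against class I. With regions within 1 kb of a start site, chosen after seeing the data, mean signal against the rest was -0.124 for the MHC, -0.0803 for class I, -0.466 for class II and -0.0671 for class III, and reads per Mb of class III against class II were 0.38. With regions over 1 kb from start sites and gene ends, also added after seeing the data, mean signal of class III was -0.0492 against class I and -0.0340 against class II, and its reads per Mb were -0.0741 against the rest and -0.664 against class I. With CPM not divided by width, class II against class I was 0.0929. Leaving out 1 library gave -0.115 to 0.0305 for reads per Mb of class III against class II, positive without library 3. Where regions were kept by distance to genes, reads per Mb were still divided by the whole length of each part. Those ratios thus also depend on the share of each part's regions that was kept. TMM factors cannot change ratios within a library. The causes were not tested.

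Of the 367 MHC regions, 42 were in the top 10% with technical replicate 1 alone and 56 to 64 without 1 library. Of the 56 MHC regions of 200 bp or wider, 12 were in it when wide regions were ranked among themselves. For technical replicate 2 against 1, edgeR called 71 regions over the whole table with the library as a block and 50 with no replicate block, 46 with no filter on low counts, and 0 to 18 without 1 library, where fewer samples and regions entered. The count was 0 without library 2, 8 without library 3 and 18 without library 1. Between libraries it called 4, and 0 to 4 without 1 library, with 0 without library 2 and 0 without library 3. In none of these fits was an MHC region called. Depth limits single regions, since the median count in technical replicate 1 was 2. Intervals were not used, because both mates of a pair may have been counted.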
